A study of Mus musculus with 3 samples.

Results

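Chemokine receptors are receptors on the surface of leukocytes that signal through inhibitory G proteins when they bind chemokines, small secreted proteins that direct cell movement. Which receptors a leukocyte carries sets which chemokines it can follow into, within and out of a tissue. In arteries, Ccr2 and Cx3cr1 are best known for the traffic and survival of monocytes and of macrophages derived from them.

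The transcripts of 9 such receptors, chosen by gene symbol among the 32285 genes counted, were followed in leukocytes of the mouse aorta. These were Ccr1, Ccr2, Ccr7, Ccr9, Cx3cr1, Cxcr2, Cxcr4, Cxcr6 and Xcr1, and all 9 were present in the count table. The counts of the CX3CR1 and XCR1 antibodies were set beside them. The assay was CITE-seq, a single-cell method that reads both the mRNA of a cell and the barcoded antibodies on its surface. Molecules were counted by unique molecular identifiers (UMIs), which keep copies made in amplification from counting again.

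The cells were CD45+ leukocytes from the aortas of 5 Jak2WT mice and 5 Jak2V617F Myel mice (Jak2V617F MyC in the sample labels), all untreated and on a C57BL/6 background. Jak2V617F Myel mice were Jak2V617F WT/Flex, with a Flex allele of Jak2V617F, a constitutively active form of the kinase Jak2, together with LysM-Cre, which turns the allele on mainly in myeloid cells because the Lysozyme M promoter drives Cre; lymphocytes were therefore not the intended target. Jak2WT mice were littermates matched for age and sex, and neither the age of these 10 mice nor whether the controls carried LysM-Cre is given in the sources used here. At sacrifice 2 mutant mice (mice 7 and 9, by hashtag number) had an aneurysm and 3 (mice 6, 8 and 10) had aortic dilation, the study's term for the mutant mice labelled as free of aneurysm. Mice 1 to 5 were Jak2WT. An intravenous CD45.2 antibody marked circulating cells, which were left out of the sort.

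All 10 mice were tagged with hashtag antibodies, pooled and run as a single library, so no library batch separates the groups, and free RNA of the pool could reach every cell. The paper states that Jak2WT and mutant cells were stained with CD45.2 antibodies of different dyes. The sort was adjusted to about equal parts of each genotype, so cell numbers by genotype depend in part on the sort. After removal of barcodes with more than 1 hashtag and of cells rich in mitochondrial transcripts, 4871 cells were kept, 112 to 811 per mouse with a median of 5441.5 to 10775 UMIs per cell. Of these, 4451 fell into 13 leukocyte types, each named from the marker transcripts it resembled and written here without the suffix "-like". All chemokine receptor genes were kept out of the clustering and of the markers. C1qa, a macrophage marker, was detected in 98.7% of macrophages and in 56.5% of all other cells. Mouse 4 gave only 92 of the leukocytes and stood apart from the other Jak2WT mice for several receptors, so results that rest on it are also given without it. Levels are in CPM, the UMIs of a gene per 1000000 UMIs of the cells summed for a mouse, and are compared for each gene between types or mice, not between genes.

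Of the 9 genes, 6 lay on chromosome 9 (GRCm38, GENCODE vM21 gene spans). Ccr9 (ENSMUSG00000029530, chr9:123678439-123784330, plus strand), Cxcr6 (ENSMUSG00000048521, chr9:123806475-123811760, plus), Xcr1 (ENSMUSG00000060509, chr9:123852315-123862029, minus), Ccr1 (ENSMUSG00000025804, chr9:123962124-123968692, minus) and Ccr2 (ENSMUSG00000049103, chr9:124101950-124113557, plus) fell within 435.1 kb of chromosome 9. Cx3cr1 (ENSMUSG00000052336, chr9:119901616-120069879, minus) was on the same chromosome. Ccr7 (ENSMUSG00000037944, chr11:99144196-99155077, minus), Cxcr2 (ENSMUSG00000026180, chr1:74153989-74161246, plus) and Cxcr4 (ENSMUSG00000045382, chr1:128588199-128592293, minus) lay elsewhere. The span of Ccr9 overlapped Slc6a20a and Lztfl1 on the opposite strand, that of Cx3cr1 overlapped Wdr48 and Ttc21a on the opposite and Gorasp1, Csrnp1 and Xirp1 on the same strand, and that of Cxcr6 overlapped Fyco1 on the opposite strand; how strand was used in counting is not given in the sources used here.

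Among the members in this stretch of chromosome 9, those next to each other had different cell types at the top of their levels. Cxcr6 and Ccr2, which are not next to each other, were both highest in gd T cells. Ccr1 was read mainly in myeloid cells and Xcr1 almost only in type 1 dendritic cells. For that reason the sequences just before the starts of Ccr1 and Xcr1 are shown. Both are the 250 bases before the RefSeq start (GRCm38.p6), 5′ to 3′ on the gene's own strand, at chr9:123968693-123968942 for Ccr1 and chr9:123862030-123862279 for Xcr1, and neither overlaps an annotated exon. Capitals mark a match to GAGGAA, the core bound by the myeloid factor PU.1.
Ccr1 upstream: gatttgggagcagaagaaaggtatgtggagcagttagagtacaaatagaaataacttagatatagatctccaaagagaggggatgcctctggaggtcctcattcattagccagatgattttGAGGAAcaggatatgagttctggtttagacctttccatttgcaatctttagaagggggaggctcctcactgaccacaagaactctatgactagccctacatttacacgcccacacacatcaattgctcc
Xcr1 upstream: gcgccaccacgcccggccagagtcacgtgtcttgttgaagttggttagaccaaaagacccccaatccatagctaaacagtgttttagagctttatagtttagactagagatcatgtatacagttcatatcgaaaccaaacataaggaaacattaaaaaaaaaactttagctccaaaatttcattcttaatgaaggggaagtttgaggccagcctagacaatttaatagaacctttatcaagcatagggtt
Both strands were searched for 3 motifs in the 8 members with a RefSeq window. GAGGAA was found in 2 of them (Ccr1 and Cxcr2) and in 23.3% of 32851 windows of the same length. TTCNNNGAA, the core of STAT sites, was in 0 of 8 and in 7.02% of all windows, and TGANTCA, the core of AP-1 sites, in 0 of 8 and in 6.75%. A match describes letters and not a bound site. The Cx3cr1 window lay wholly (250 bases) and the Ccr2 window mostly (233 bases) within annotated exons of the gene itself, and 42 bases of the Ccr9 window did. The counts over 8 windows thus tell little about the sequence upstream of Cx3cr1 and Ccr2.

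Each receptor had a pattern of its own over the 13 types, shown in the heatmap of mean levels by type. Xcr1 and Cxcr2 were each read almost in a single type, Ccr9 mostly in immature T cells, Ccr7 in B and T cells, Cxcr6 in gd T cells and type 2 innate lymphoid cells (ILC2), and Ccr1, Ccr2, Cx3cr1 and Cxcr4 in several. The orders that follow are descriptions without a test, over 9 or 10 mice for macrophages, T cells, cDC2, B cells and ILC2, 4 for cDC1, immature T, gd T, mast and proliferating cells, 3 for neutrophils and Saa3+ myeloid cells and 2 for natural killer cells.

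**Figure D1:**
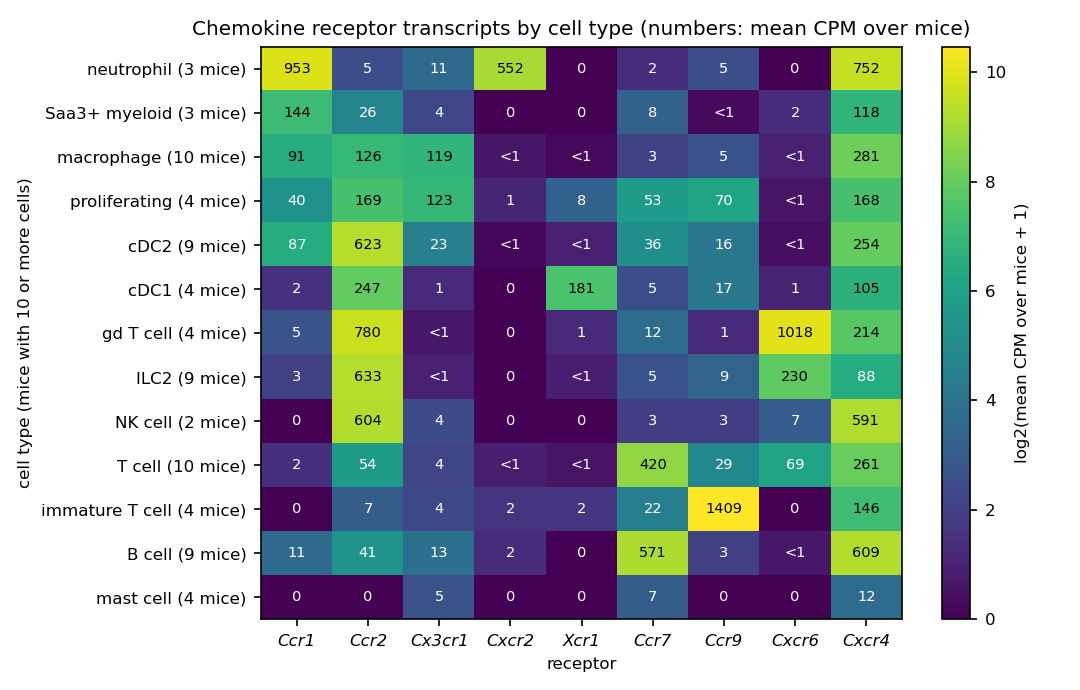
Mean CPM of the 9 receptors (columns) in 13 leukocyte types (rows), over the mice with at least 10 cells of a type; colour is log2(mean CPM + 1), the printed number is the mean CPM, and a gene is to be compared down its column only. Cxcr2 is high in neutrophils (552) alone, Xcr1 in cDC1 (181), and Ccr9 in immature T cells (1409), while Cxcr4 is read in nearly every type.

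Among myeloid receptors, Ccr1, which binds CCL3, CCL5 and other inflammatory chemokines, was highest in neutrophils, at 953 ± 448 CPM (SD, n = 3 mice). Saa3+ myeloid cells followed at 144 ± 25.1 (SD, n = 3), macrophages at 90.5 ± 26.6 (SD, n = 10) and type 2 conventional dendritic cells (cDC2) at 87.3 ± 36.5 (SD, n = 9). The lowest neutrophil value, 591 CPM, lay far above these types, while the ranges of the last 3 overlapped. Because neutrophils were few, macrophages still held 50.7% of the 4027 Ccr1 UMIs, and neutrophils 12.8%.

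Cxcr2, the receptor of CXCL1 and CXCL2 by which neutrophils are recruited, stood at 552 ± 170 CPM in neutrophils (381 to 720, n = 3). The next type, immature T cells, had 2.07 CPM (n = 4), and 92.0% of the 337 Cxcr2 UMIs were in neutrophils. For shares of cells with a UMI, cells were thinned to 2000 UMIs, and 163 of the 4451 leukocytes with fewer UMIs were left out. After thinning, 65.1% of neutrophils had a Cxcr2 UMI (exact 95% interval 55.2 to 74.1, and 80.7% without thinning). For B cells, which should lack it, the share was 0.176%, and it was 0 of 1775 macrophages (exact 95% upper limit 0.208%). Median depths were 4091 UMIs in neutrophils, 5609 in B cells and 10541 in macrophages. Intervals on shares cover counting error only, not the spread between mice.

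Ccr2, the receptor of CCL2, was led by 4 types whose ranges overlapped, none of them macrophages. Gd T cells had 780 ± 120 CPM (SD, n = 4), ILC2 633 ± 173 (SD, n = 9), cDC2 623 ± 161 (SD, n = 9) and natural killer (NK) cells 604 ± 108 (SD, n = 2). Type 1 conventional dendritic cells (cDC1) followed at 247 ± 86.7 (SD, n = 4) and macrophages at 126 ± 105 (SD, n = 10), the latter from 36.6 to 374 CPM. Thinned to 2000 UMIs, 70.9% of gd T cells (exact 95% interval 62.9 to 78.0) and 53.6% of cDC2 had a Ccr2 UMI, against 1.76% of B cells. By number of UMIs, macrophages held 35.1% and cDC2 32.5% of the 10908 counted.

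Cx3cr1, the receptor of fractalkine (CX3CL1), was highest in proliferating cells and macrophages, which could not be ranked. Proliferating cells had 123 ± 159 CPM (13.4 to 357, n = 4) and macrophages 119 ± 92.6 (16.2 to 286, n = 10). The next were cDC2 at 22.6 ± 27.1 and B cells at 13.4. Of the 3585 UMIs, 82.7% were in macrophages.

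Xcr1, the receptor of XCL1 and a hallmark of cDC1, stood at 181 ± 51.3 CPM in cDC1 (122 to 243, n = 4), and the next type, proliferating cells, had 8.42 (n = 4). In cDC1 33.7% of thinned cells had an Xcr1 UMI (exact 95% interval 23.7 to 44.9), and 85.5% did without thinning at a median of 18047 UMIs. Of 569 thinned B cells 0 had an Xcr1 UMI (exact 95% upper limit 0.646%). With only 336 UMIs in all, 86.3% of them in cDC1, this was the gene with the fewest UMIs.

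Among receptors of lymphocytes, Ccr7 binds CCL19 and CCL21 and leads cells to lymph nodes. B cells had 571 ± 136 CPM (SD, n = 9) and T cells 420 ± 137 (SD, n = 10), with overlapping ranges. Proliferating cells followed at 52.6 (n = 4) and cDC2 at 36.2 ± 40.7. Among T cells divided by the CD4 and CD8a antibodies (192 CD4+ and 181 CD8a+ cells of 410), CD8a+ cells had 503 ± 129 and CD4+ cells 398 ± 150 CPM. Thinned shares with a Ccr7 UMI were 62.6% in B cells, 39.8% in T cells and 0.394% in macrophages.

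Cxcr6, the receptor of CXCL16, was highest in gd T cells at 1018 ± 151 CPM (868 to 1184, n = 4), clear of ILC2 at 230 ± 105 and of T cells at 68.6 ± 63.5. Of thinned gd T cells 80.1% had a Cxcr6 UMI (exact 95% interval 72.9 to 86.2), against 26.6% of ILC2 and 0 of 569 B cells. Gd T cells, 154 of the 4451 leukocytes, held 65.1% of the 1790 Cxcr6 UMIs. Gd T cells were thus the type with the highest mean for both Cxcr6 and Ccr2.

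Cxcr4, the receptor of CXCL12 that retains cells in bone marrow and tissue, was the most widely read. Neutrophils (752 ± 396 CPM, n = 3), B cells (609 ± 168, n = 9) and NK cells (591 ± 111, n = 2) came first and did not differ beyond their spread. Macrophages (281 ± 73.3, n = 10), T cells (261 ± 87.6) and cDC2 (254 ± 88.8) followed, again without separation. At the other end ILC2 had 88.3 ± 47.4 and mast cells 12.1 CPM (n = 4), and 0 of 48 thinned mast cells had a UMI, which allows up to 6.25%. Thinning left out 17 mast cells, and without it 6.15% had a Cxcr4 UMI. By source, 45.9% of the 13909 Cxcr4 UMIs were in macrophages.

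Ccr9, the receptor of CCL25 known from thymocytes and gut-homing T cells, was highest in immature T cells, in which Themis was detected in 80%, Rag1 in 77%, Dntt in 66.5%, Rag2 in 15.5% and Ptcra in 9.5% of cells. Of these 200 cells, 190 carried both CD4 and CD8a on the surface. They had 1409 ± 141 CPM of Ccr9 (1252 to 1557, n = 4), against 69.6 ± 56.3 (n = 4) in proliferating cells and 28.6 ± 19.9 in T cells. In thinned cells, 87.7% of immature T cells (exact 95% interval 81.0 to 92.7) and 0.901% of macrophages had a Ccr9 UMI. Thinning left out 62 of the 200 immature T cells, and without it the share was 81.5%. Immature T cells held 63.1% of the 1438 Ccr9 UMIs, proliferating cells 11.3%, macrophages 8.34% and T cells 6.54%. The cells named macrophages included a small cluster of 16 with the T cell genes Trbc2, Cd3g, Ccr9 and Rag1 among its leading genes. Its part in the Ccr9 UMIs of macrophages was not tested.

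Such cells were spread very unevenly over the mice, and the Ccr9 level of the whole leukocyte pool moved with them. Mice 3, 10, 6 and 9 held 71, 67, 33 and 23 immature T cells, mouse 8 held 4, mice 2 and 4 held 1 each and the other 3 mice held 0. Ccr9 over all leukocytes was 115, 54.9, 75.5 and 22.6 CPM in mice 3, 10, 6 and 9 and 3.89 to 12.8 CPM in the other 6. The 4 mice with many such cells were thus the 4 highest, and they came from all 3 groups. With immature T cells left out, Ccr9 was 31.2, 17.4, 20.3 and 12.3 CPM in these mice and 2.95 to 9.22 in the others, so the same mice still stood highest. In sums over all leukocytes, more cells of a type and more RNA per cell cannot be told apart.

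**Figure D2:**
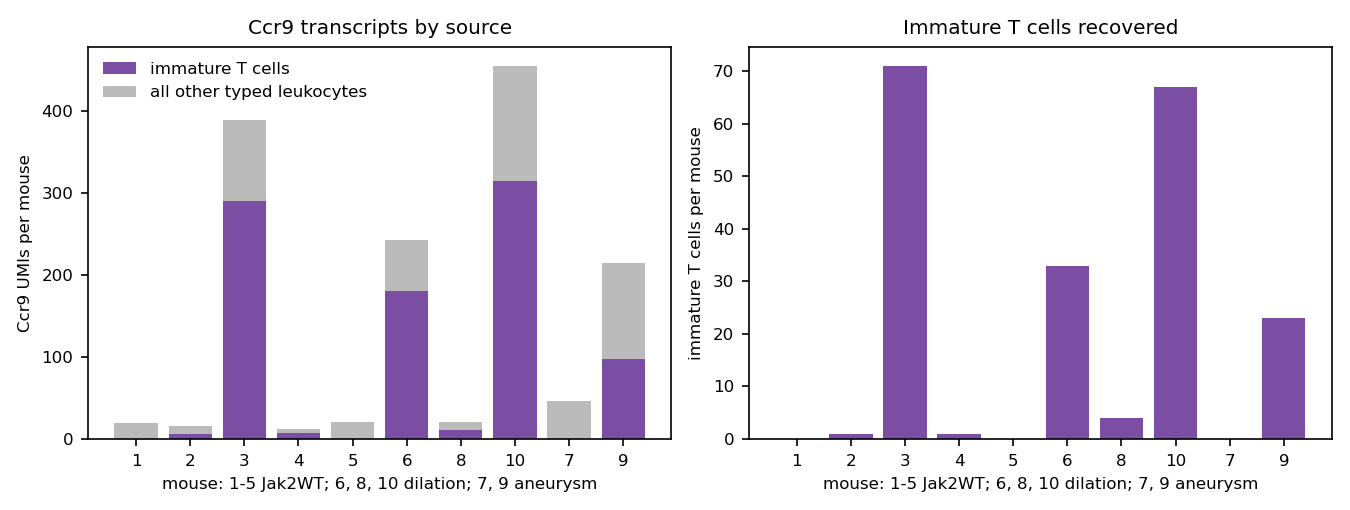
Ccr9 UMIs of each mouse split by source (immature T cells or all other leukocytes), and the number of immature T cells of each mouse, with mice on the x axis by hashtag number. Mice 3, 6, 9 and 10 held 71, 33, 23 and 67 immature T cells, and these gave 74.6%, 74.1%, 45.8% and 69.2% of their Ccr9 UMIs.

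For each receptor the genes with the most similar pattern over the 13 types were sought among 11315 genes, by Pearson correlation of mean log2(CPM + 1). The points share 1 library, and several patterns rest on a single high type. Cx3cr1 was closest to Nes (0.892), Col14a1 (0.882) and Mmp12 (0.871), the last a macrophage elastase. Ccr2 was closest to Tmem173 (0.901), Dusp12 (0.897) and Inf2 (0.889). Ccr1 was closest to Hcar2 (0.961), Lsm10 (0.949) and Cd300lb (0.949), and Cxcr4 to B4galt3 (0.920), Ublcp1 (0.909) and Pyroxd1 (0.899). Cxcr2 was closest to Retnlg (0.983), itself a marker used to name neutrophils, Amer2 (0.975) and Ankrd22 (0.974), and Xcr1 to Cyp8b1 (0.967), Ttc39a (0.956) and Snx22 (0.954). For Ccr7 the genes were Serpini1 (0.947), Gm8369 (0.872) and Dtx1 (0.847), for Ccr9 Mex3a (0.907), Slc25a35 (0.904) and Gm12258 (0.904), and for Cxcr6 Gm29243 (0.978), Podnl1 (0.953) and Crmp1 (0.946).

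On the cell surface, the CX3CR1 and XCR1 antibodies were highest on the types in which their transcripts were read, as the plot of antibody against transcript shows. Levels are antibody counts per 1000 antibody counts, and 17 pairs of types were compared within mice by two-sided exact permutation tests. CX3CR1 stood at 3.28 ± 1.14 on macrophages (SD, n = 10), and 4 comparisons passed the threshold. Macrophages were higher than T cells in 10 of 10 mice (3.28 against 0.818), and higher than B cells (3.29 against 0.908), cDC2 (3.10 against 0.541) and ILC2 (3.29 against 1.37) in 9 of 9 mice each (exact permutation test, adjusted p = 0.0166 for each). The other 7 comparisons rested on 3 or 4 mice, where the exact permutation test cannot go below p = 0.125 or 0.25, so none could pass. In 6 of them macrophages were higher in every mouse, and against proliferating cells, which also carried the transcript, in 3 of 4 (4.26 against 2.29).

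XCR1 stood at 9.31 ± 1.83 on cDC1 (SD, n = 4) and at 0.166 to 0.604 on the types compared with it. It was higher on cDC1 in every mouse with both types, but with 4 mice the exact permutation test cannot go below p = 0.125, so no XCR1 comparison could pass. Over the 13 types, Pearson's r between antibody level and log2(mean CPM + 1) was 0.915 for XCR1 and 0.650 for CX3CR1, and Spearman's rho was 0.599 and 0.253, a description over types that share 1 library.

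**Figure D3:**
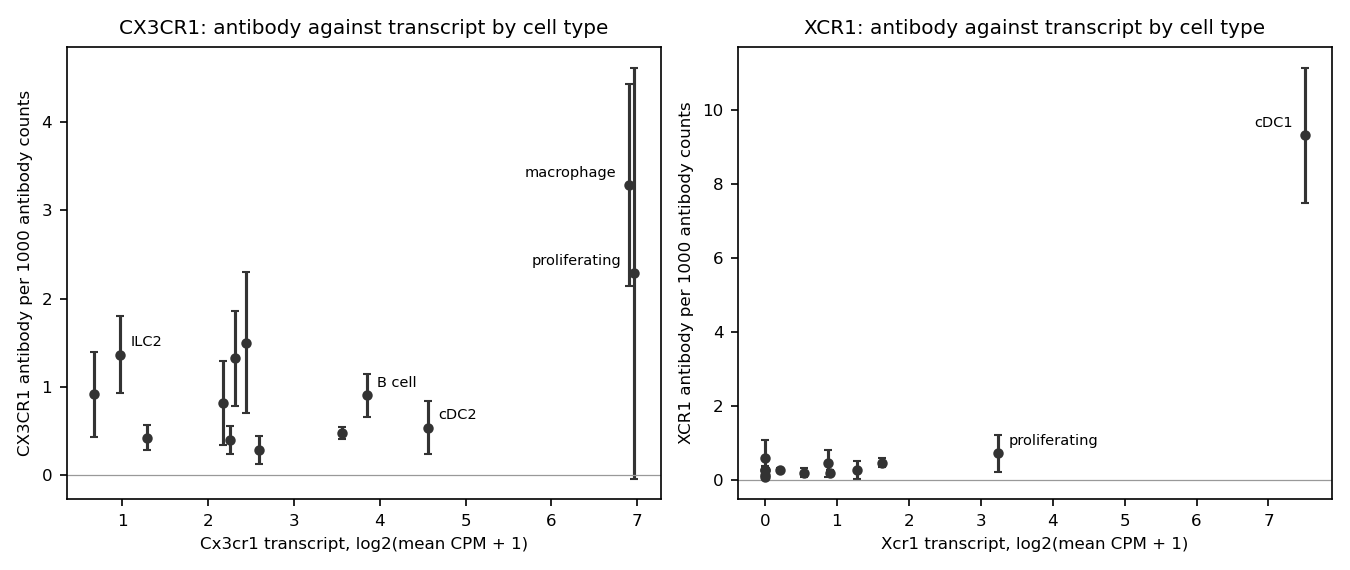
Antibody level (counts per 1000 antibody counts, mean and SD over mice) against transcript level (log2(mean CPM + 1)) of CX3CR1 and XCR1, with 1 point for each of 13 leukocyte types. cDC1 stand alone at the top for XCR1 (9.31), and macrophages have the highest CX3CR1 (3.28).

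The panel also held CXCR4 and CCR2 antibodies, which gave weak counts. Over all barcodes of the count table, before any cell was left out, CXCR4 had 4254 and CCR2 1464 counts. CX3CR1 had 30910, XCR1 5492, and the hamster, rat IgG1, rat IgG2b and rat IgG2a isotype controls 2787, 2682, 630 and 0. CXCR4 was highest on immature T cells (0.820), where its transcript stood at 146 CPM, below 8 other types, and r with the transcript was 0.186 for CXCR4 and 0.393 for CCR2.

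Summed over all leukocytes of a mouse, the 9 receptors together made up 807 ± 107 CPM in Jak2WT mice (SD, n = 5), 733 ± 70.7 with dilation (SD, n = 3), and 944 and 1115 in mice 7 and 9 with aneurysm. The comparison of genotypes asks whether myeloid Jak2V617F goes with other receptor levels. By edgeR's quasi-likelihood test 0 of 9 receptors differed between genotypes in these sums at an adjusted p under 0.05, where 0.00956% of all genes were called, and by DESeq2 also 0; Ccr7 alone had an unadjusted p under 0.05. Ccr7 was 159, 97.7, 245, 80.1 and 146 CPM in mice 1 to 5 and 46.9, 58.6, 98.5, 35.2 and 92.2 in mutant mice 6 to 10. The mutant mice were mostly lower and the groups overlapped (log2 fold change -1.14, SE 0.334, edgeR adjusted p = 0.370). Genotype differences of the other 8 receptors ran from -0.25 (Cxcr2) to 0.57 (Cxcr6) on the log2 scale. B and T cells held 54.1% and 31.1% of the Ccr7 UMIs. Within B cells Ccr7 was 532 CPM in mutant and 621 in Jak2WT mice (log2 -0.22), and within T cells 408 and 432 (log2 -0.21). Neither difference passed the test, and the part of cell makeup in the Ccr7 sums was not tested.

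Between aneurysm and dilation, the question was whether the receptors follow the severity of the lesion among mutant mice. With 2 mice against 3, groups can lie apart without overlap by chance, so a lack of overlap here and below is a description only. Over all leukocytes Cx3cr1 stood at 98.9 and 196 CPM in mice 7 and 9, against 31.7, 6.77 and 17.9 in mice 6, 8 and 10. Jak2WT mice had 50.7, 46.7, 23.9, 148 and 23.7 CPM, so mouse 4 reached the level of the aneurysm mice. The groups of mutant mice did not overlap, but the difference of 3.01 on the log2 scale (SE 0.754, 8.08-fold) missed the threshold over all genes (edgeR adjusted p = 0.196), and it passed only when cells were thinned to equal depth (adjusted p = 0.0303). Ccr1 likewise was 105 and 102 CPM with aneurysm and 44.1, 56.8 and 82.7 with dilation (log2 0.79, SE 0.238, edgeR adjusted p = 0.315). In all, 0 of 9 receptors were called here by edgeR, where 0.274% of all genes were, and 2 had an unadjusted p under 0.05.

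**Figure D4:**
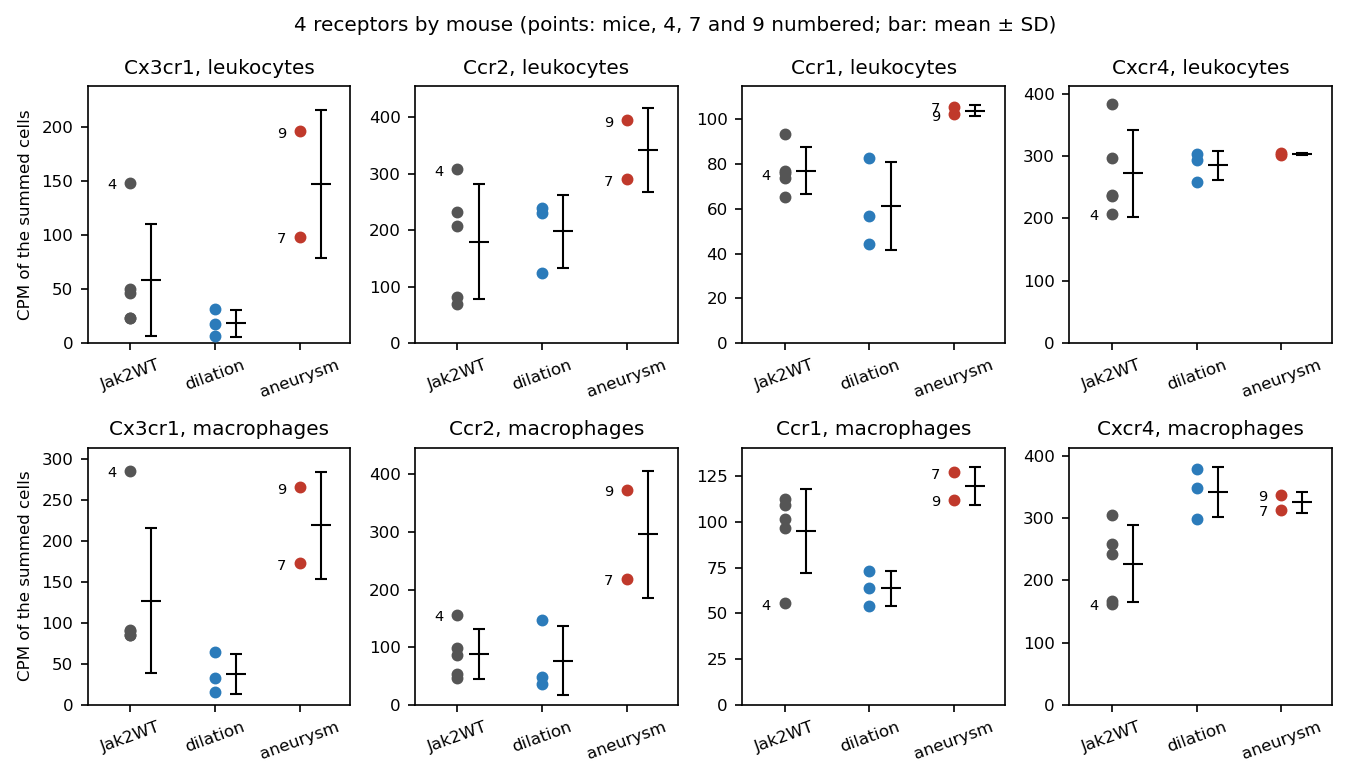
CPM of Cx3cr1, Ccr2, Ccr1 and Cxcr4 in all leukocytes and in macrophages, by group; each point is a mouse and bars are the mean ± SD. In macrophages both aneurysm mice lie above all 3 dilation mice for Cx3cr1 (173 and 265 against 16.2 to 64.6), Ccr2 and Ccr1, and not for Cxcr4, and Jak2WT mouse 4 is the highest for Cx3cr1 (286).

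Within macrophages 3 receptors were higher in aneurysm than in dilation, namely Cx3cr1, Ccr2 and Ccr1, which was 3 of the 5 receptors that could be tested. Of all 9049 genes tested in macrophages, 9.37% were called in either direction and 5.55% as higher in aneurysm. Macrophages numbered 127 to 253 per mouse with dilation and 370 and 395 with aneurysm.

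Macrophage Cx3cr1 was 173 and 265 CPM in mice 7 and 9 with aneurysm and 64.6, 16.2 and 32.2 in mice 6, 8 and 10 with dilation. It was thus 6.16-fold higher in aneurysm (log2 2.62, SE 0.504, edgeR adjusted p = 0.00475) without overlap. Jak2WT mice had 90.9, 90.0, 84.9, 286 and 84.8 CPM, between the mutant groups apart from mouse 4, which had 47 macrophages and lay above both aneurysm mice. Without mouse 4 in the fit the difference was 2.63 (edgeR adjusted p = 0.000299).

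Macrophage Ccr2 was 218 and 374 CPM with aneurysm and 147, 36.6 and 47.6 with dilation. The rise was 4.11-fold (log2 2.04, SE 0.482, edgeR adjusted p = 0.0157), with dilation mouse 6 near the lower aneurysm mouse. This call was lost without mouse 8, 9 or 10 (adjusted p = 0.0638, 0.136 and 0.0801) and by DESeq2 (adjusted p = 0.0542). Jak2WT mice ranged from 46.5 to 156 CPM. How reads that match several genes were counted is not given in the sources used here.

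Macrophage Ccr1 was 127 and 112 CPM with aneurysm and 53.9, 64.0 and 72.9 with dilation, 1.95-fold higher in aneurysm (log2 0.96, SE 0.194, edgeR adjusted p = 0.00635). Jak2WT mice 1, 2, 3 and 5 had 96.6 to 113 CPM and mouse 4 had 55.5, so most Jak2WT mice lay near the aneurysm mice and above those with dilation. The call was lost without mouse 7 (adjusted p = 0.0702) and in thinned cells (adjusted p = 0.0529). Cxcr4 by contrast was 314 and 337 CPM with aneurysm and 349, 298 and 379 with dilation, a log2 difference of -0.01 (SE 0.224), and Ccr9 differed by -0.06 (SE 0.698); neither passed the test.

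The groups differed in the share of macrophages that fell into each of 2 clusters, and the part of these shares in the 3 differences was not tested. A cluster led by Lyve1, the marker of resident macrophages, held 1213 macrophages and a cluster led by Spp1, Mmp12, Cx3cr1 and Ms4a7 held 584. The Spp1-led cluster made up 66.2% and 54.2% of macrophages in mice 7 and 9 and 10% to 15.8% in the other 8 mice. In it Cx3cr1 stood at 242 and 397 CPM with aneurysm, 353, 37.7 and 154 with dilation and 167 to 408 in 4 Jak2WT mice, so all 3 groups overlapped. Dilation mice had only 13 to 29 cells of this cluster.

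Tested within each cluster, an alternative added after the values were seen, none of the 3 differences passed the threshold. Cx3cr1 differed between aneurysm and dilation by 1.10 (SE 0.700) in the Lyve1-led and 0.81 (SE 0.583) in the Spp1-led cluster on the log2 scale, and Ccr2 by 1.25 (SE 0.549) and 0.52 (SE 0.788). These were smaller than the 2.62 and 2.04 in all macrophages. Ccr1 differed by 0.90 (SE 0.196) and 0.85 (SE 0.456), about as much as in all macrophages, and in the Lyve1-led cluster it was 123 and 121 CPM with aneurysm against 50.0, 67.0 and 73.7 with dilation, without overlap (unadjusted p = 0.000309, edgeR adjusted p = 0.891). In the Lyve1-led cluster 0.0115% and in the Spp1-led cluster 0% of all genes were called.

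**Figure D5:**
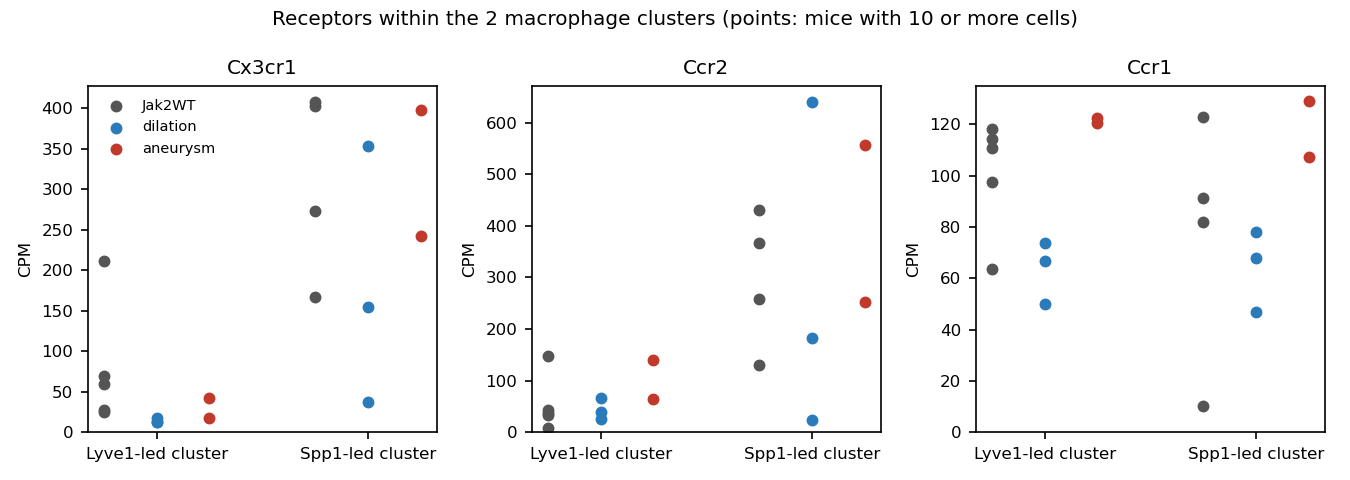
CPM of Cx3cr1, Ccr2 and Ccr1 in the Lyve1-led and the Spp1-led macrophage clusters by group, each point a mouse with at least 10 cells of the cluster. Cx3cr1 and Ccr2 are mostly higher in the Spp1-led cluster in every group, and Ccr1 in the Lyve1-led cluster is 121 and 123 with aneurysm and 50.0 to 73.7 with dilation.

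The macrophages were also divided into finer subsets, whose levels are set side by side within the same mice, 7 and 9, because other groups had few cells of some subsets. Ccr2 stood at 200 and 506 CPM in inflammatory, 97.1 and 44.5 in Lyve1+ resident and 38.7 and 7.37 in immediate-early macrophages of mice 7 and 9. Cx3cr1 was 278 and 408 CPM in inflammatory, 8.50 and 37.2 in resident and 20.6 and 88.5 in immediate-early macrophages. In both mice the inflammatory subset was above the other 2. Ccr1 averaged 91.1 CPM in inflammatory macrophages of these mice and was 81.3 and 104 in resident and 144 and 175 in immediate-early macrophages. Unnamed cells were a cluster of 187 and a cluster of 16 led by T cell genes such as Trbc2. The cluster of 187 was led by the hemoglobin genes Hbb-bt, Hba-a1 and Hba-a2, with Il1a, Ccr2 and H2-Aa also among its leading genes. Unnamed cells had 355 and 730 CPM of Ccr2 in these mice, above the inflammatory subset in both, and are not ranked as a subset. Of the 203 unnamed cells 160 came from aneurysm, 31 from dilation and 12 from Jak2WT mice. The inflammatory subset held 294 cells from aneurysm mice, 10 from dilation and 16 from Jak2WT mice, too few to test the groups within it.

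Within that subset Ccr2 and Cx3cr1 were read in overlapping sets of cells. Of 319 inflammatory macrophages thinned to 2000 UMIs, 58 had UMIs of both, 56 of Ccr2 only, 83 of Cx3cr1 only and 122 of neither. Cx3cr1 was thus read in 50.9% of cells with Ccr2 and 40.5% of those without, against 35% and 12.7% over all macrophages. Shares with a Cx3cr1 UMI were 44.2% in inflammatory (exact 95% interval 38.7 to 49.8) and 4.89% in resident macrophages and 1.23% in B cells. For Ccr2 they were 35.7%, 4.45% and 1.76%. Unnamed macrophages had shares of 44.4% for Ccr2 and 27.3% for Cx3cr1, and the 28 macrophages named monocytes 60.7% and 28.6%.

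The CX3CR1 antibody stood at 6.60 counts per 1000 on inflammatory (n = 2 mice, both with aneurysm), 4.76 on interferon-induced (n = 4), 3.69 on immediate-early (n = 9) and 2.15 on resident macrophages (n = 10). The set of mice differs between these means, so subset and mouse group are mixed in them and they are not ranked. Over all macrophages the antibody was 4.23 and 5.19 with aneurysm, 2.92 ± 0.145 with dilation (SD, n = 3) and 2.93 ± 1.24 in Jak2WT mice (SD, n = 5). The mutant groups did not overlap, but the difference did not pass the test (log2 0.59, SE 0.290, edgeR adjusted p = 0.316). Of the 4 receptor antibodies, 0 of 27 tests between aneurysm and dilation passed by edgeR, where 0.99% of all antibody tests did, and 0 had an unadjusted p under 0.05.

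Markers of cDC2 also moved with these groups. In macrophages, their summed level was 109 to 122 CPM with aneurysm, 39.4 to 64.6 with dilation and 16.4 to 51.2 in Jak2WT mice. Monocyte markers overlapped, at 99.8 to 139, 29.0 to 274 and 4.50 to 300.2 CPM, and B cell markers were no higher with aneurysm (13.4 to 36.2 against 30.2 to 68.7 with dilation). The part of the cDC2 markers in the Ccr2 and Cx3cr1 levels was not tested.

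Outside the macrophage total, 0 of the other receptor tests between aneurysm and dilation passed. Over 10 types and classes 3 of 40 tests were called by edgeR, all 3 in macrophages, and 11 had an unadjusted p under 0.05. The types and classes overlap, since macrophage subsets and T cell classes hold cells of the totals. No share of all genes under the unadjusted threshold is given, so the 11 are not read as an excess. In the 7 other types together 0.0398% of all gene tests were called, and 0.0128% in Lyve1+ resident and 0.0714% in immediate-early macrophages. Nearest to the threshold was Ccr1 in immediate-early macrophages, at 144 and 175 CPM in mice 7 and 9 against 50.1, 57.7 and 87.9 in mice 6, 8 and 10, without overlap (log2 1.18, SE 0.239, edgeR adjusted p = 0.0838). It passed without mouse 10 (1.51, edgeR adjusted p = 0.0148) and without the filter on low counts (edgeR adjusted p = 0.00115), and the adjusted p otherwise ran from 0.0813 to 0.994. Passing without that filter is given no weight here and below. There the macrophage Cx3cr1 difference hardly moved (2.67 against 2.62), while its edgeR adjusted p fell from 0.00475 to 8.73e-45. Ccr7 in cDC2 was 123 and 82.6 CPM in mice 7 and 9 against 32.7, 18.2 and 25.5 in mice 6, 8 and 10 (log2 2.08, edgeR adjusted p = 0.156). Of 374 cDC2, 3 cells expressed at least 3 of 5 mature dendritic cell markers, all from aneurysm mice, and they held 114 of the 390 Ccr7 UMIs.

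Cxcr6 in CD4+ T cells was 195 and 241 CPM with aneurysm and 39.1 and 28.6 with dilation (log2 2.68, edgeR adjusted p = 0.240). In these cells gd T cell markers summed to 8.62 to 65.1 CPM with aneurysm and 4.76 to 9.78 with dilation, and their part in the result was not tested. Ccr2 in B cells was 68.6 and 204 CPM against 0, 6.96 and 2.10 (edgeR adjusted p = 0.163). These values rest on 49 and 16 B cells of mice 7 and 9 and on 28, 47 and 105 of mice 6, 8 and 10. B cells of all mice together held 89 Ccr2 UMIs. Macrophage markers in B cells summed to 1421 CPM in mouse 7, 4840 in mouse 9 and 954 to 1939 with dilation, and their part was not tested either. Cxcr6 in CD4+ T cells and Ccr2 in B cells passed the filter on low counts in this comparison and not between genotypes. The filter reads the same counts as the difference, so their being among the tests is no support for it.

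Between genotypes within cell types, 0 of 30 receptor tests over 9 types and classes were called by edgeR, 1 by DESeq2, and 9 had an unadjusted p under 0.05. These types and classes overlap in the same way, and the 9 are likewise not read as an excess. The share of all genes called by DESeq2 is not given. In macrophages 0% of all genes were called between genotypes, in Lyve1+ resident macrophages 2.55%, in immediate-early macrophages 0.0622% and in the 6 other types 0.0122%. The genotype and severity comparisons share the mutant mice and are not independent. The receptors nearest to the threshold were Cxcr4 and Cx3cr1 in macrophages.

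Cxcr4 in immediate-early macrophages was 143, 214, 228 and 309 CPM in Jak2WT mice 1, 2, 3 and 5 and 429, 333, 381, 466 and 478 in mutant mice 6 to 10. All 5 mutant mice lay above all 4 Jak2WT mice (log2 0.86, SE 0.178, edgeR adjusted p = 0.0853). DESeq2 called this difference (0.85, adjusted p = 0.00676), as did edgeR without mouse 5 or 7 (adjusted p = 0.0173 and 0.0488). The edgeR call without the filter on low counts is given no weight. Over all macrophages Cxcr4 was 335 CPM in mutant and 227 in Jak2WT mice, with overlap (log2 0.59, SE 0.162, edgeR adjusted p = 0.226). The CXCR4 antibody on macrophages was 0.70 higher on the log2 scale in mutant mice (unadjusted p = 0.0123, edgeR adjusted p = 0.372), from the weak counts given above. Of 19 antibody tests between genotypes 0 passed by edgeR, where 0.392% of all antibody tests did, and 2 had an unadjusted p under 0.05.

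Cx3cr1 in Lyve1+ resident macrophages was 79.1, 14.7, 64.6, 211 and 32.6 CPM in Jak2WT mice and 11.7, 8.50, 12.9, 37.2 and 9.60 in mutant mice 6 to 10. The mutant mice were mostly lower, with overlap (log2 -2.01, SE 0.535, edgeR adjusted p = 0.0517). Mouse 4 was the highest, and without it the difference was -1.39 (edgeR adjusted p = 0.127). Without mouse 2, 5 or 9 the difference passed the threshold at -2.29, -2.27 and -2.71. It did not pass without mouse 1, 3, 6, 7, 8 or 10 (edgeR adjusted p = 0.0913 to 0.148). The difference also passed with MULTIseqDemux (-2.30, edgeR adjusted p = 0.0312), the 5% mitochondrial limit (-1.97, adjusted p = 0.0489) and removal of cells with markers of 2 lineages (-2.29, adjusted p = 0.0314). It missed by DESeq2 (-2.32, adjusted p = 0.0509), with receptor genes kept in the clustering (-1.96, edgeR adjusted p = 0.0518) and at resolution 0.5 (-1.96, edgeR adjusted p = 0.0595). The pass without the filter on low counts (-1.96) is given no weight.

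The other genes of the pathway were taken as fixed lists of 16 further receptors, 22 ligands and 19 signalling genes. In macrophages between aneurysm and dilation, 9.37% of all genes were called in either direction and 5.55% as higher in aneurysm. Beside this, 2 of 17 tested ligands were higher, 0 lower. These ligands were Cxcl16, the ligand of Cxcr6 (log2 1.23, edgeR adjusted p = 0.000833), and Cxcl3, a ligand of Cxcr2 (3.86, adjusted p = 0.0422). Of 18 signalling genes 4 were higher, Grk3, which desensitizes receptors (1.67), Vav1 (0.70), Rac2 (0.56) and Pik3r5 (0.74), and Rgs18, a regulator that shortens G protein signals, was lower (-0.69). Of the further receptors 0 of 2 were called by edgeR. Median differences were 0.96 for the 5 members tested, 0.73 for further receptors, 0.21 for ligands and 0.21 for signalling genes, beside -0.01 for all genes. The median of the members is the value of Ccr1, and that of the further receptors rests on 2 genes. Members and lists were chosen with earlier results of these data known, and no shift of a list as a whole was tested.

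Over all leukocytes, 0 of the listed further receptors, ligands or signalling genes were called in either comparison. Of all genes, 0.00956% were called there between genotypes and 0.274% between aneurysm and dilation. Between genotypes, 2.55% of all genes were called in Lyve1+ resident and 0.0622% in immediate-early macrophages. Lyve1+ resident macrophages of mutant mice had higher Cxcl2 (1.32, edgeR adjusted p = 0.00224), Ccl2, the ligand of Ccr2 (0.69, adjusted p = 0.0174), and Gnai3, an inhibitory G protein subunit (0.53, adjusted p = 0.0364). Rgs2, which damps G protein signals, was lower in immediate-early macrophages of mutant mice (-1.23, edgeR adjusted p = 0.0103). In B cells Rgs1 was higher in aneurysm than in dilation (3.66, edgeR adjusted p = 0.0434), beside the macrophage markers in B cells given above. The aneurysm side rests on 49 B cells of mouse 7 and 16 of mouse 9.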

How the data were processed

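The authors deposited UMI counts per cell barcode, made with Cell Ranger 6.0.2 on mm10 and not normalized. The table covered 8471 barcodes, 32285 genes and 75 antibodies, of which 73 had counts. Authors' cell annotations were not used here. Hashtag numbers were assigned to groups from the sample descriptions.

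HTODemux (Seurat 5.3.0, quantile 0.99) assigned 5857 barcodes (69.1%) to a mouse; 2265 carried several hashtags, and 349 had no call. Doublets within a mouse were not removed. Cells with over 10% mitochondrial transcripts (986) were left out. Clustering used 2000 variable genes without 15 receptor genes, 20 components and resolution 0.3 (0.8 for macrophage subsets). A cluster of 339 cells with a median of 1757 UMIs stayed unnamed, and 47 non-leukocytes and 34 platelets were left out. Leukocyte UMIs per mouse were 936435 to 9467540.

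UMIs were summed per mouse and type (at least 10 cells), kept where filterByExpr passed them, normalized by TMM and compared over all genes with edgeR 4.0.16 (quasi-likelihood, two-sided, Benjamini-Hochberg, 0.05). SE was the size of the log2 fold change divided by the square root of F. Aneurysm against dilation was a contrast in a fit of all mice with at least 10 cells of the type. These were 10 mice for all leukocytes, macrophages, T cells and Lyve1+ resident macrophages. For B cells, cDC2, ILC2 and immediate-early macrophages they were 9, and for CD4+ and CD8a+ T cells 8. Unnamed macrophages had 4, with 0 Jak2WT mice. Mice are separate animals. Counts of tests with an unadjusted p under 0.05 are given without the share of all genes or antibodies under it. Except within the macrophage clusters, calls under the alternatives named next are also given without the share of all genes called. DESeq2 1.42.0, no filter, thinning to 2000 UMIs, MULTIseqDemux, a 5% mitochondrial limit, resolution 0.5, receptor genes kept in the clustering, removal of cells with markers of 2 lineages and leaving out each mouse were alternatives; tests within each macrophage cluster, macrophages with the unnamed cluster and sums without immature T cells were added after seeing the data. The scripts were tested on simulated data. Named are all 9 receptors, for each the 3 genes most alike over types, and the listed genes that passed a test, of which 1 is not reported here. The members and lists were chosen with earlier results of these data known.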

Additional observations from a re-analysis of the deposited data

Results flagged for a closer look

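In 44 groups of mice and levels examined, 9 held a mouse far from the others by Dixon's criterion, which chance alone gives in about 1 in 20 groups. Mouse 4, the Jak2WT mouse with the fewest cells (47 macrophages), was flagged most often. Its Cx3cr1 was 286 CPM in macrophages (84.8 to 90.9 in the other Jak2WT mice) and 148 over all leukocytes (23.7 to 50.7), its macrophage Ccr1 was 55.5 CPM on 27 UMIs (96.6 to 113), and its CCR2 antibody was 0.0396 per 1000 counts on 5 counts (0.0943 to 0.114). Mouse 3, with the most immature T cells, had 115 CPM of Ccr9 over all leukocytes (3.89 to 12.8 in the other Jak2WT mice) and 15.1 CPM in macrophages on 13 UMIs (0 to 3.95). Immature T cell markers summed to 45.4 CPM in macrophages of mouse 3, against 1.60 to 9.00 in the other Jak2WT mice. In mouse 2, Xcr1 was 26.4 CPM (0 to 6.46) and the XCR1 antibody 0.777 per 1000 (0.214 to 0.278), so transcript and surface protein stood out in the same mouse. Mouse 10 had 259 CPM of Cxcr4 over all leukocytes against 293 to 305 in the other mutant mice. The cause was not tested for any of these.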

How the results depend on the processing

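Over all alternatives, 674 values were rated the same, 28 reversed, 20 lost their call, 14 gained one and 12 moved otherwise. Same meant an unchanged direction and side of the threshold for a tested difference. For a level it meant a mean within 1 SD, and for a count of calls an equal or similar number. Of the 144 levels, 143 stayed within 1 SD. Part of them could not move, because leaving out a mouse with too few cells of a type leaves its level as it was. Neutrophil Ccr1 was 953 CPM as reported and also without mouse 1. Where the SD was wide the rule was loose. Cx3cr1 in proliferating cells was 45.6 CPM without mouse 9, against 123 as reported, and still counted as the same. For the 3 macrophage receptors higher in aneurysm, Ccr1 was 0.79 in thinned cells and 0.90 and 0.85 within the Lyve1-led and Spp1-led clusters, Ccr2 was 2.02 by DESeq2 and 1.25 and 0.52 within the clusters, and Cx3cr1 was 1.10 and 0.81 within the clusters, and under each of these the call was lost. Leaving out single mice gave 0.86 to 1.10 for Ccr1, 1.62 to 2.86 for Ccr2 and 2.30 to 3.17 for Cx3cr1, and only Cx3cr1 stayed called each time. Calls made without the filter on low counts are given no weight. There macrophage Cx3cr1 was 2.67 with an edgeR adjusted p of 8.73e-45, beside 2.62 and 0.00475 as reported. Receptors called between genotypes within types numbered 0 in the analysis as reported, 1 by DESeq2 (Cxcr4 in immediate-early macrophages), 1 by MULTIseqDemux, the 5% mitochondrial limit or without cells of 2 lineages (Cx3cr1 in resident macrophages), 6 without the filter on low counts and 0 to 2 without single mice. Between aneurysm and dilation within types they numbered 3 as reported, 12 without the filter and 2 to 4 without single mice, and over all leukocytes 1 in thinned cells and 0 without any single mouse. Shares of all genes called under these alternatives are not given, so these counts are not read as an excess. Over all leukocytes the sign of small differences turned. Thinning gave -0.34 for Ccr1 and -0.11 for Cxcr4 between genotypes, and -0.42 for Cxcr2 and -0.048 for Cxcr4 in aneurysm. Ccr1 between genotypes was -0.0034 at the 5% limit and -0.0058 by MULTIseqDemux, and Xcr1 was 0.089 by DESeq2, 0.081 by MULTIseqDemux, 0.015 without the filter and 0.00076 at resolution 0.5. Leaving out single mice gave, between genotypes, -0.10 to 0.19 for Ccr1, -0.36 to 2.23 for Ccr9, -0.44 to 1.02 for Cx3cr1, -0.54 to 0.14 for Cxcr2 and -0.47 to 1.34 for Xcr1, and in aneurysm -0.016 to 1.38 for Cxcr2 and -1.11 to 0.67 for Xcr1. The cause was not tested. The type with the highest mean stayed the same in 137 of 144 alternatives, part of which left the level of that type unchanged as said above. The exceptions were Cx3cr1, where macrophages and proliferating cells changed places, and Cxcr4, led by NK cells without mouse 3. Only 2 mice had an aneurysm, Xcr1 and Cxcr2 rest on 336 and 337 UMIs, and types with few cells were read in 2 to 4 mice. Mice of different groups could not be paired, because no litter assignment of the mice is given in the sources used here.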
